A study of Schizophyllum commune with 6 samples.

Results

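In the B mating-type region of the split-gill mushroom Schizophyllum commune, 4 gene models were followed across 6 RNA-seq libraries: the pheromone receptor genes bbr2 and bar3 and the receptor-like genes brl1 and brl3. In the RefSeq gene table model 1238578's symbol is bbr2, model 1034973's is bar3, model 1192520's is brl1 and model 258344's is brl3. They were chosen by identifier, and the 4 are among 14652 models in the deposited files. All 4 passed the filter on low reads, which left 12484 models for testing. No sequence is shown, because no sequence source was used here.

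In this basidiomycete, mating is governed by 2 kinds of loci. The A locus encodes homeodomain proteins, and the B locus encodes lipopeptide pheromones and the seven-helix, G protein-coupled receptors that sense them. A receptor is activated by pheromones of a different specificity and not by those of its own, and the response governs the exchange and migration of nuclei between mating partners. Classical B receptors come in alpha and beta series: by its symbol bbr2 is the beta receptor of specificity 2 and bar3 the alpha receptor of specificity 3. Receptor-like genes such as brl1 and brl3 resemble these receptors, have no specificity number in their names and are not known as determinants of mating type.

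The 3 groups of 2 libraries were a knockout of dhc2, a dynein heavy chain gene according to the labels (dynein is a microtubule motor), the wild-type strain E6, and the wild-type strain 12-43. The knockout carried A3,5 and B2,2, E6 carried A4,6 and B2,1, and 12-43 carried A3,5 and B2,2. Per the labels all samples were mycelium of monokaryons, which hold 1 type of nucleus, grown at 28 °C on CYM medium and for 3 days on cellophane, although the growth protocol speaks of mycelium from a mating interaction. How the knockout was made and whether replicates were separate cultures is not given in the sources used here, so any p-value rests on the spread among libraries alone, and that spread may be technical. The model of dhc2 itself is not named in the gene table used here, so the deleted gene was not checked.

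The values are RPKM, read numbers scaled to the length of the model and to the reads of the library, and the reads behind them were solved for from the steps of the values. The denominators of replicates 1 and 2, the order of all paired values here, were 14372979 and 13857189 reads in the knockout, 9210239 and 13012283 in E6 and 14054525 and 8769918 in 12-43. The libraries also fell into sets by their read quality reports: the reports of both knockout libraries and of 12-43 replicate 1 list GAAGA among over-represented 5-base words, and those of E6 and of 12-43 replicate 2 do not. Each comparison is therefore also given with this library set as a covariate. That fit sets the knockout against 12-43 replicate 1 and E6 against 12-43 replicate 2. For the knockout against E6 it takes off the difference between the 12-43 replicates. Of the hydrophobins known from the dikaryon and fruiting bodies, SC1, SC4 and SC6, none was at 0 in any library, and their summed level was 24.2 and 22.7 RPKM in the knockout libraries, 15.1 and 18.2 RPKM in E6 and 284 and 571 RPKM in 12-43. SC3, the hydrophobin of aerial hyphae, was at 4773 ± 97.6 RPKM in the knockout, 22410 ± 846 RPKM in E6 and 12387 ± 2093 RPKM in 12-43 (SD, n = 2 each). The sum is mostly SC4 in 12-43. SC4 and SC1 were called lower by limma in both the knockout and E6 against 12-43, while SC6, at 4.27 ± 1.10 RPKM in the knockout, 4.41 ± 0.187 RPKM in E6 and 3.08 ± 0.563 RPKM in 12-43 (SD, n = 2 each), was called in no comparison. The part of SC1, SC3 and SC4 in the receptor values was not tested. In bulk mycelium, fewer hyphae with a transcript and less transcript per hypha cannot be told apart.

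The 4 genes differed widely in level per length. The receptor-like gene brl3 was the most abundant of them in every library. It stood at 100 and 103 RPKM in the knockout libraries, 74.4 and 75.6 RPKM in E6 and 150 and 127 RPKM in 12-43, above 80.9% to 89.6% of tested models. The other 3 genes lay below the median tested model, except bbr2 in both knockout libraries, above 55.5% and 56.3% of tested models, and bar3 in E6 replicate 1, above 52.3%. The median tested model was at 21.3 and 21.5 RPKM in the knockout libraries, 18.5 and 18.7 RPKM in E6 and 20.4 and 19.2 RPKM in 12-43.

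The make-up of the group shifted between strains. The summed level of the 4 genes was 149 and 151 RPKM in the knockout libraries, 96.7 and 96.3 RPKM in E6 and 188 and 155 RPKM in 12-43. Of this sum bbr2 held 17.8% and 18.4% in the knockout, 0.0594% and 0.127% in E6 and 10.1% and 8.07% in 12-43. The share of bar3 was 6.05% and 5.26% in the knockout, 20.9% and 18.8% in E6 and 6.27% and 6.50% in 12-43. E6 was thus the strain in which the bar3 model exceeded the bbr2 model. The bbr2 model was 2.94 and 3.50 times as high as bar3 in the knockout and 1.61 and 1.24 times in 12-43. These are levels of gene models: the labels give specificity 3 to no strain at the B locus, and B2,1 to E6. Whether a strain carries the allele of a model was not analysed.

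**Figure D1:**
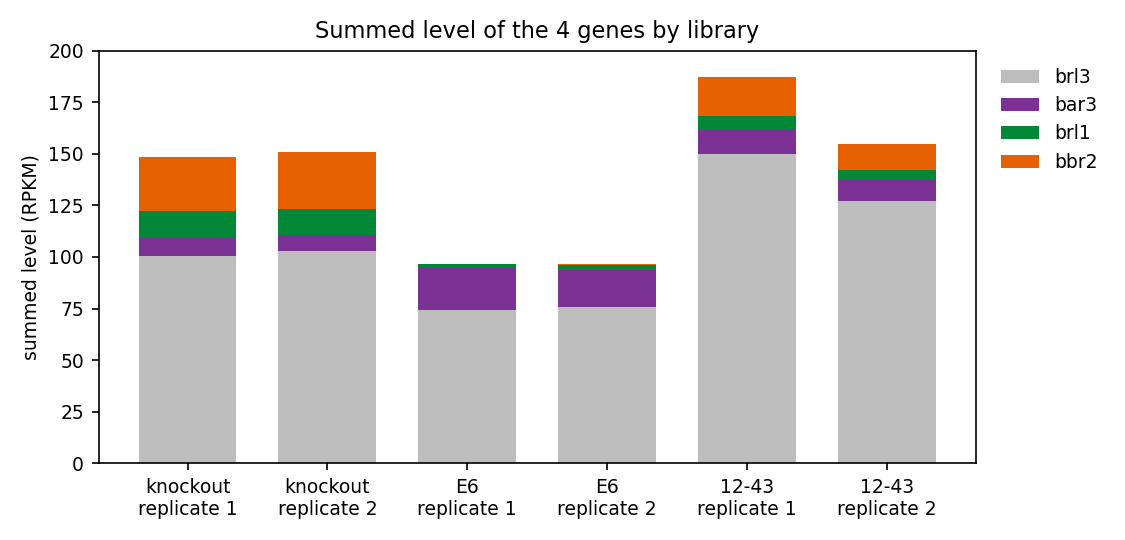
Stacked bars give the level in RPKM of brl3, bar3, brl1 and bbr2 in each of the 6 libraries, with the knockout left, E6 in the middle and 12-43 right. The bars of E6 end at 96.7 and 96.3 RPKM and show almost no bbr2, and brl3 fills most of every bar.

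The receptor bbr2 was the member with the widest range. Its level was 26.5 and 27.8 RPKM in the knockout (719 and 729 reads), 0.0574 and 0.122 RPKM in E6 (1 and 3 reads) and 18.9 and 12.5 RPKM in 12-43 (503 and 207 reads). The knockout libraries were highest. Of the E6 libraries, replicate 1 lay below and replicate 2 at the detection floor of 3 reads (0.172 and 0.122 RPKM for this model). No groups overlapped, and in each comparison the groups also lay apart for 78.7% to 84.5% of tested models. The 12-43 replicates differed 1.52-fold in RPKM. On the scaled log2(RPKM + 0.5) values used for testing they differed by 0.50, and 10.2% of tested models differed more between them.

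The receptor bar3 had the opposite order. It was at 8.99 and 7.94 RPKM in the knockout libraries, 20.3 and 18.1 RPKM in E6 and 11.8 and 10.1 RPKM in 12-43. E6 was the highest group and the knockout the lowest, without overlap, as for most tested models in each comparison. The knockout and 12-43 lay next to each other and did not differ beyond the test's threshold.

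The receptor-like gene brl1 followed the order of bbr2 with a narrower range. Its level was 12.8 and 12.4 RPKM in the knockout libraries, 2.02 and 2.45 RPKM in E6 and 6.75 and 4.95 RPKM in 12-43. The read numbers behind these values were 415 and 389 in the knockout, 42 and 72 in E6 and 214 and 98 in 12-43. The groups did not overlap, as for most tested models in each comparison. The gene brl3 was highest in 12-43, next in the knockout and lowest in E6, with replicates that agreed to within 1.02-fold in the knockout, 1.02-fold in E6 and 1.18-fold in 12-43.

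**Figure D2:**
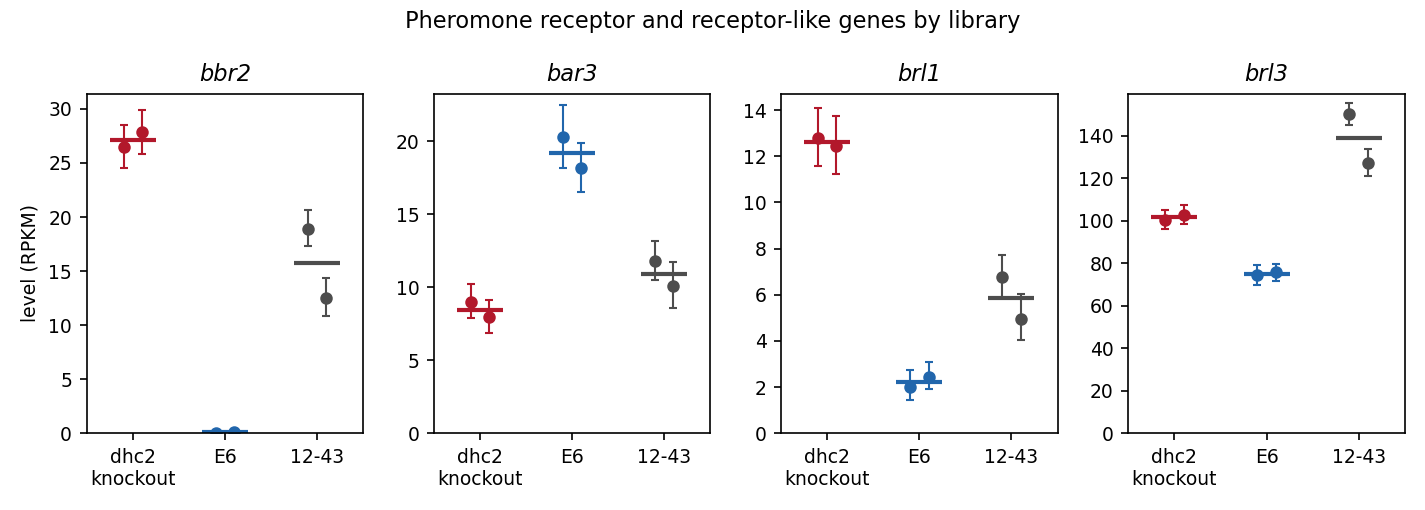
Each panel shows 1 gene, with its level in RPKM on a linear axis from 0 and the knockout, E6 and 12-43 from left to right. Points are libraries with exact 95% Poisson intervals that cover counting error only, and horizontal bars are group means. The E6 points of bbr2 sit at 0.0574 and 0.122 RPKM, while bar3 is highest in E6 and brl3 highest in 12-43.

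The comparison of the dhc2 knockout with 12-43 sets the strain labelled as the knockout against a wild type with the same labelled A and B mating types. The beta receptor bbr2 and the receptor-like gene brl1 rose, the receptor-like gene brl3 fell, and bar3 did not pass the test. That is 3 of 4 genes called, where limma called 54.7% of all tested models (27.8% higher and 26.9% lower), so the share called is not a result about these genes. The libraries of the 2 groups did not overlap for any of the 4, as for 79.0% of tested models. The median log2 change was 0.22 over the 4 genes, which moved in both directions. Over all tested models it was -0.01, a value that the scaling holds near 0, while their median absolute change was 0.45. The comparisons of the knockout and of E6 with 12-43 share the 12-43 libraries.

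Levels of brl1 averaged 12.6 ± 0.251 RPKM in the knockout and 5.85 ± 1.27 RPKM in 12-43 (SD, n = 2 each). On the log2(RPKM + 0.5) scale the difference was 1.05 (SE 0.17, limma adjusted p = 0.00175), a 2.08-fold higher level. The change of brl1 was exceeded by 21.1% of tested models. With the library set as a covariate it was 0.89 (adjusted p = 0.00791).

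Levels of bbr2 averaged 27.2 ± 0.967 RPKM in the knockout and 15.7 ± 4.56 RPKM in 12-43 (SD, n = 2 each), a log2 difference of 0.79 (SE 0.19, limma adjusted p = 0.0111). The call on bbr2 was lost without knockout replicate 1 (limma adjusted p = 0.0542) and without knockout replicate 2 (limma adjusted p = 0.0666). The size depended on which 12-43 library was used, at 1.04 without replicate 1 and 0.54 without replicate 2. With the covariate, again the knockout against 12-43 replicate 1, it was 0.54 (limma adjusted p = 0.0410).

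Levels of brl3 averaged 102 ± 1.73 RPKM in the knockout and 139 ± 16.1 RPKM in 12-43 (SD, n = 2 each), a log2 difference of -0.45 (SE 0.09, limma adjusted p = 0.00413). This change was close in size to that of the median tested model, whose absolute log2 difference was 0.45, and with the covariate it was -0.53 (limma adjusted p = 0.00342). For bar3 the means were 8.46 ± 0.740 RPKM in the knockout and 10.9 ± 1.20 RPKM in 12-43 (SD, n = 2 each), and the log2 difference of -0.35 had a 95% interval of -0.67 to -0.03 and a limma adjusted p of 0.0629. It was called with upper-quartile scaling (limma adjusted p = 0.0390) and with voom on the reads (adjusted p = 0.0365), and not with the covariate (-0.42, limma adjusted p = 0.0697).

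The comparison of E6 with 12-43 sets wild types against each other that differ in labelled A and B mating type. In E6 bbr2, brl1 and brl3 fell and bar3 rose, so that all 4 were called where limma called 59.4% of tested models (30.2% higher and 29.2% lower). None of the 4 overlapped between the groups, as for 78.7% of tested models. The median log2 change was -0.97 over the 4 genes, which moved in both directions. Over all tested models it was -0.01, a value that the scaling holds near 0, while their median absolute change was 0.51.

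The largest of these differences was that of bbr2. E6 held 4 reads in all and 12-43 held 710, and scaled to the denominators E6 was at 0.00579 of the 12-43 level, 173-fold lower. The exact 95% interval of this ratio, from counting error alone, was 0.00157 to 0.0149. The fitted log2 difference was -4.72 (SE 0.19, limma adjusted p = 2.29e-06). This value understates the change because of the pseudocount of 0.5 RPKM, and pseudocounts of 0.1 and 2 gave -6.32 and -3.03, and voom gave -7.05. Larger changes were fitted for 0.937% of tested models. Of 5499 tested models with at least as many reads in 12-43 as bbr2, 12 had at most 4 reads in E6, bbr2 included. The labels give B2,2 for 12-43 and B2,1 for E6, so the first number is shared and the second differs. If the numbers stand for the alpha and beta series in that order, E6 is not labelled with beta specificity 2, after which bbr2 is named. Sequences of the strains were not analysed here, so that less transcript and an allele unlike the model cannot be told apart.

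For the other members the differences were smaller. Levels of bar3 averaged 19.2 ± 1.50 RPKM in E6 and 10.9 ± 1.20 RPKM in 12-43 (SD, n = 2 each), a log2 difference of 0.87 (SE 0.14, limma adjusted p = 0.00131). Specificity 3, after which bar3 is named, is given by the labels to none of the strains at the B locus, so its values are those of the gene model. Levels of brl1 averaged 2.24 ± 0.305 RPKM in E6 and 5.85 ± 1.27 RPKM in 12-43 (SD, n = 2 each), a log2 difference of -1.14 (SE 0.17, limma adjusted p = 0.00111). For brl3 the log2 difference was -0.80 (SE 0.09, limma adjusted p = 0.000215), from means of 75.0 ± 0.866 RPKM in E6 and 139 ± 16.1 RPKM in 12-43 (SD, n = 2 each). With the covariate the log2 differences were -4.47 for bbr2, 0.93 for bar3, -0.97 for brl1 and -0.72 for brl3, and all stayed past the threshold.

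The comparison of the dhc2 knockout with E6 crosses both the knockout and the labelled mating type, and it also lies wholly across the library sets. In the knockout bbr2, brl1 and brl3 were higher and bar3 was lower, so that all 4 were called where limma called 62.7% of tested models (31.9% higher and 30.8% lower), and none overlapped, as for 84.5% of tested models. For bbr2 the knockout held 1448 reads and E6 held 4, which scaled to the denominators is a ratio of 285 (exact 95% interval from counting error 111 to 1047). The fitted log2 difference of 5.52 (SE 0.19, limma adjusted p = 1.62e-06) was exceeded by 0.465% of tested models. Pseudocounts of 0.1 and 2 gave 7.13 and 3.77, and voom gave 7.82. The log2 difference of brl1 was 2.19 (SE 0.17, limma adjusted p = 4.70e-05), and 6.91% of tested models changed more. It was -1.22 for bar3 (SE 0.14, limma adjusted p = 0.000251). For brl3 it was 0.35 (SE 0.09, limma adjusted p = 0.0104), and this call was lost with the covariate (0.19, limma adjusted p = 0.266), without knockout replicate 1 (limma adjusted p = 0.0619) and without knockout replicate 2 (limma adjusted p = 0.0721). In the fit with the covariate the other 3 genes kept their calls, at 5.01 for bbr2, 1.86 for brl1 and -1.36 for bar3, while the number of models called fell to 4759, against 7825 without it.

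**Figure D3:**
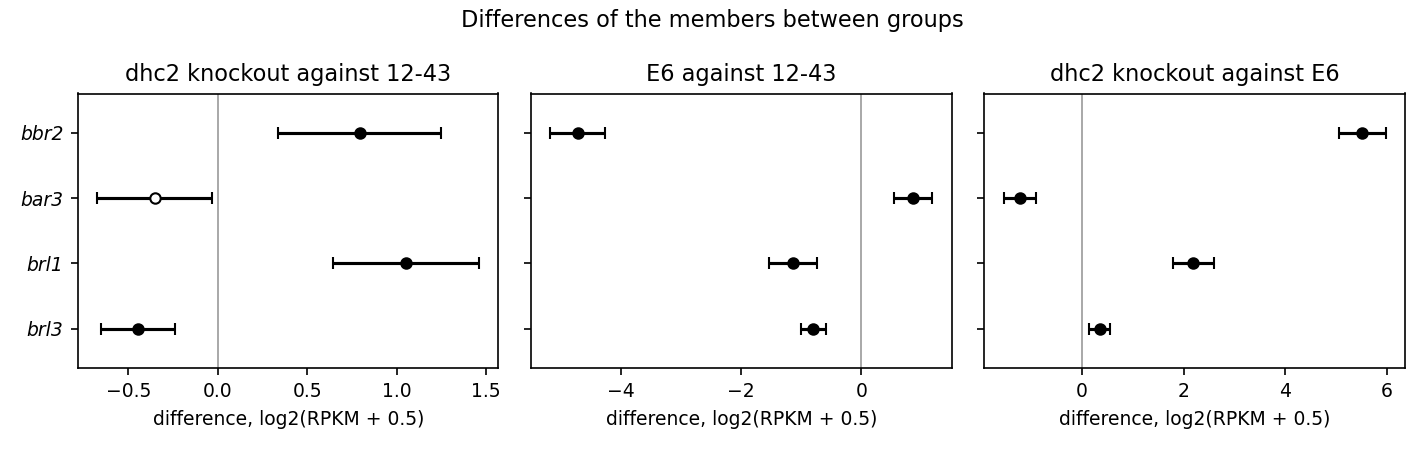
Points are the differences between group means on the log2(RPKM + 0.5) scale for bbr2, bar3, brl1 and brl3, with 95% intervals from limma, in the 3 comparisons; each panel has its own horizontal scale. Filled points passed an adjusted p of 0.05 and the open point, bar3 in the knockout against 12-43, did not (-0.35, interval -0.67 to -0.03).

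Among gene table entries that matched a deposited model, the only further receptor-like gene with a symbol was brl4. It was at 31.9 and 31.1 RPKM in the knockout libraries, 23.5 and 23.7 RPKM in E6 and 37.8 and 29.6 RPKM in 12-43. The knockout lay inside the range of 12-43, with a log2 difference of -0.09 (SE 0.12, limma adjusted p = 0.530). In E6 against 12-43 the log2 difference of brl4 was -0.42 (SE 0.12, limma adjusted p = 0.0176). Leaving out 12-43 replicate 1 (limma adjusted p = 0.0688), E6 replicate 1 (0.0625) or E6 replicate 2 (0.0547) ended this call, as did the covariate (0.0682). In the knockout against E6 it was 0.33 higher (SE 0.12, limma adjusted p = 0.0433), but 7 of 16 alternatives ended the call, among them the covariate (0.06, limma adjusted p = 0.788).

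In the RefSeq gene table the 4 genes lie in 1 stretch of 35 gene entries that begins with brl1 and ends with brl3, and 23 of these entries matched a deposited model. The stretch was looked at after the values had been seen, so its counts carry no test. It holds the 9 lipopeptide pheromone genes that have a symbol and matched a model. Of the 8 of these that were tested, all were called higher in the knockout against 12-43, as were 27.8% of all tested models. The genes bbp2-5 (38 and 44 reads) and model 17248 (14 and 16 reads) reached the read filter in the knockout libraries only. The gene bbp2-8 reached it outside the knockout in 12-43 replicate 1 only. These genes were tested because of their knockout reads, so their calls as higher there are not independent of the filter. In E6 against 12-43 6 fell and 1 rose, where 29.2% of all tested models were called lower and 30.2% higher. Some of these calls rest on few reads. Model 17248 (bbp2), called lower, had 2 and 2 reads in 12-43 and 0 in both E6 libraries. The gene bbp2-6, called higher, had 3 and 3 reads in 12-43 and 10 and 28 in E6. As for bbr2, less transcript in E6 and an allele unlike the model cannot be told apart. The median log2 change of the 8 pheromone genes in the knockout against 12-43 was 2.07, beside 0.79 for bbr2 and -0.35 for bar3. The median includes the genes that needed the knockout to pass the filter, and the difference from the receptors was not tested.

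Directly beside bbr2 stand the pheromone gene bbp2-1 and model 1238579, which has no symbol. Model 1238579 was at 76.8 and 62.7 RPKM in the knockout, 0 in both E6 libraries and 53.2 and 48.5 RPKM in 12-43. It was at least 68.0-fold lower in E6 than in 12-43, against a floor of 3 reads in each E6 library. In the knockout against 12-43 its log2 difference was 0.44 (SE 0.14, limma adjusted p = 0.0341), and 6 of 16 alternatives ended that call. The gene bbp2-1 was at 70.9 and 69.6 RPKM in the knockout, 0 in both E6 libraries and 30.1 and 27.8 RPKM in 12-43.

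The near absence of bbr2 reads in E6 thus had company on both sides. From bbp2-2 to bbp2-8 the table has 11 entries, of which 9 matched a model, bbr2 among them. Together these held 4091 reads in the knockout, 11 in E6 and 1485 in 12-43, and no model of the run had more than 3 reads in an E6 library. Of the 1485 reads, bbr2 held 710 and model 1238579 held 419. Not every model of the run was lower in E6 than in 12-43: bbp2-5 had 0 and 1 reads in both strains. The run did not extend to the other members: bar3, brl1 and brl3 had 795, 114 and 2419 reads in E6.

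**Figure D4:**
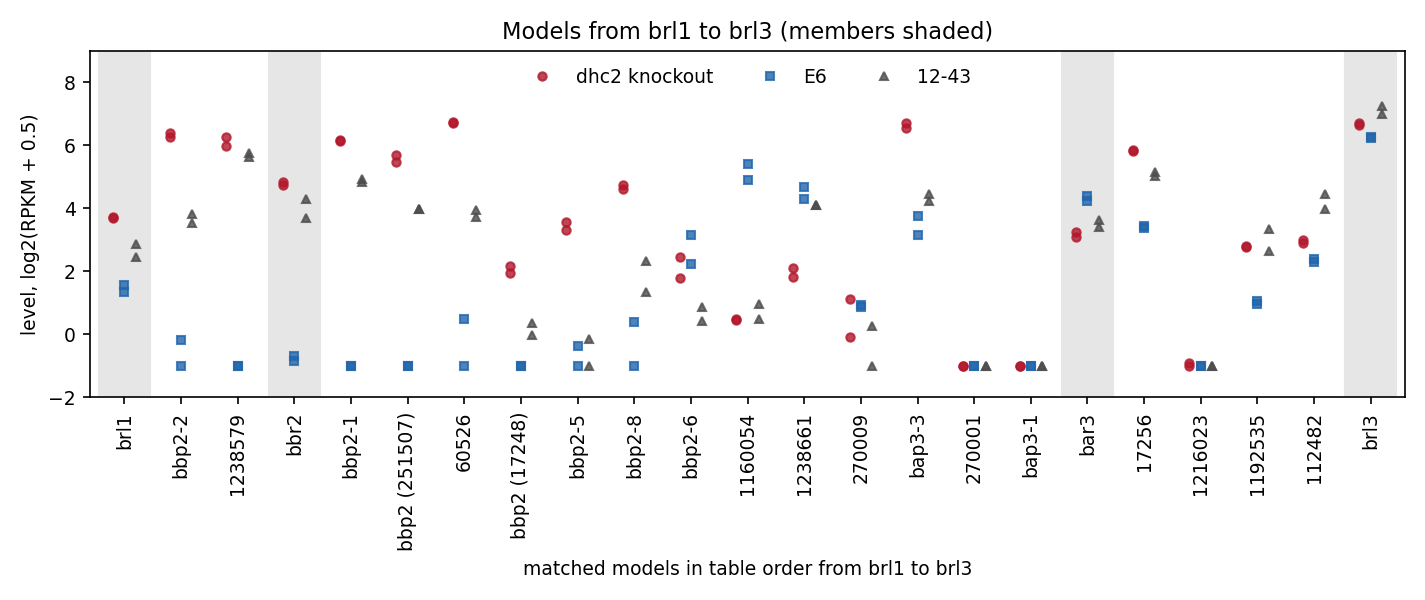
Levels on the log2(RPKM + 0.5) scale are shown for the 23 matched models in table order from brl1 to brl3, not to distance, with 2 points for each of the knockout, E6 and 12-43; the 4 members are shaded and a value of -1 stands for 0 RPKM. The E6 points lie below 1 for all models from bbp2-2 to bbp2-8, bbr2 included, and rise again at bbp2-6, while bar3 is highest in E6.

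Next to brl3 stands model 112482, also without a symbol, which was at 7.42 and 6.95 RPKM in the knockout libraries, 4.79 and 4.41 RPKM in E6 and 21.6 and 15.2 RPKM in 12-43. It had the order of brl3, with log2 differences of -1.28 in the knockout (SE 0.17, limma adjusted p = 0.000632) and -1.80 in E6 (SE 0.17, limma adjusted p = 0.000101) against 12-43. The entry before bar3 is the pheromone gene bap3-1, which was listed at 0 in all 6 libraries. The entries on both sides of brl1 matched no deposited model.

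Likeness of pattern was measured as the root mean square difference of log2(RPKM + 0.5) values over the 6 libraries, after centring each model. The members were not each other's nearest models. Between members the smallest difference was 0.767, for bar3 and brl3. Nearest to brl3 was model 1195700, at 0.0279, and 911 models lay within 0.2 of brl3. Its level was 97.7 and 96.3 RPKM in the knockout libraries, 72.1 and 70.7 RPKM in E6 and 143 and 125 RPKM in 12-43. Nearest to bar3 was model 1212083, at 0.0595, with 267 models within 0.2. Nearest to brl1 was model 51416, at 0.0872, with 39 models within 0.2. These counts fall as the changes of the members grow, because the differences were not scaled to a model's range. Larger changes in the knockout against E6 were fitted for 65.4% (brl3), 19.5% (bar3), 6.91% (brl1) and 0.465% (bbr2) of tested models. A count within 0.2 therefore cannot tell a rare pattern from a wide range. For bbr2 it was the lowest among the members, with 1 model within 0.2. That model, 1163881, was at 21.7 and 23.7 RPKM in the knockout, 0 in both E6 libraries and 14.6 and 13.5 RPKM in 12-43, and its likeness to bbr2 was 0.158.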

How the data were processed

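Each deposited file holds the authors' RPKM per model, as its header says, and below them the FastQC 0.9.2 output for the raw reads (length 51). TopHat, DESeq and edgeR are named, with no role or version, per the submitters' processing notes. The sources used here do not state how reads were counted, whether strand was used, the build or the annotation. Related receptor genes may therefore share reads, assigned to either.

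RPKM were solved for whole reads, with model lengths as multiples of 3. Of 13715 models above 0, 100% came out whole within 0.005 reads plus rounding. On simulated data (14652 models) the denominators were exact in 6 of 6 libraries and the reads in 99.2% of models with reads in all libraries. Coding lengths came out as 1890 nt for bbr2, 1881 nt for bar3, 2256 nt for brl1 and 1449 nt for brl3. If all read numbers of a model have a common factor, the solution is too low by that factor. Intervals and floors cover counting error only.

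Groups were compared with limma 3.58.1 under R 4.3.3, on log2(RPKM + 0.5) after trimmed-mean scaling (factors 0.962 to 1.04), with trend, group as the only term, 1 joint fit of the 6 libraries (3 residual degrees of freedom) and Benjamini-Hochberg adjustment over 12484 models at 0.05. Models entered with at least 0.744 CPM (10 reads at the median depth) in 2 libraries and 15 reads in all. In simulations (12484 models, 200 altered) the test found 66% of the 2-fold and 98% of the 4-fold changes for the knockout against 12-43, 69% and 97% for E6 against 12-43, and 69% and 99% for the knockout against E6. False calls made up 2.38%, 6.21% and 5.08% of its calls in these comparisons, in that order. The simulated spread beyond counting was the same for all models and groups, unlike that of the real replicates. The 200 altered models were also far fewer than the models called in the data. These rates therefore need not hold for the real comparisons. Replicates differed by more than counting noise (mean chi-square per model 2.98 in the knockout, 18.6 in E6, 34.0 in 12-43), so none were merged.

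Identifiers were matched to the RefSeq table of Schco3 by locus tag (3637 of 14652), for names and neighbours only. That table has no product names. No matched entry had a symbol of the planned A-locus, signalling or pheromone-processing lists, so these had 0 members. Other genes were named by a rule: receptor-like symbols, neighbours of a member, and the model nearest in pattern. The 4 genes and all lists were chosen with earlier results of these data known.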

Additional observations from a re-analysis of the deposited data

How the results depend on the processing

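For the 12 pairs of a gene and a comparison, 16 alternatives each were run: other pseudocounts, scalings and filters, the compared groups alone, a replicate block, the library set as a covariate, voom, and each library left out, where a lone library is assumed to vary like the other groups. In the comparisons with 12-43 the covariate repeats the contrast with a 12-43 library left out, so the alternatives are not independent. All 192 values kept their direction, 185 also kept their side of the threshold, and 9 of 12 pairs did so throughout. The exceptions were bbr2 in the knockout against 12-43 without a library (0.54 to 1.04, adjusted p 0.00313 to 0.0666), brl3 in the knockout against E6 with the covariate (0.19, adjusted p = 0.266) and without a library (0.35 to 0.37, adjusted p 0.00439 to 0.0721), and bar3 in the knockout against 12-43, called with upper-quartile scaling (-0.41) and voom (-0.38) only; the cause was not tested. With the covariate the models called in the knockout against E6 numbered 4759, and 4511 of them were also among the 7825. For brl4 in the knockout against 12-43 the sign turned without 12-43 replicate 1 (0.036, adjusted p = 0.814), in a range of -0.23 to 0.036 without a library. Nothing in the labels says that equal replicate numbers mark a shared culture or day, and deviations of same-numbered libraries correlated across models at -0.00 to 0.03. The replicate block changed no call on the 4 genes: bar3 in the knockout against 12-43 had an adjusted p of 0.0605 with it, and brl3 in the knockout against E6 one of 0.0177. It left 6588, 7225 and 7645 models called in the knockout against 12-43, E6 against 12-43 and the knockout against E6. Depth limits bbr2 in E6, where 1 and 3 reads set the counting interval.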

Other observations

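Within the same stretch of the table, model 1160054, which has no symbol and stands between bbp2-6 and bar3, was highest in E6, where bbr2 was lowest. Its levels in the knockout were 0.875 and 0.908 RPKM, in E6 29.4 and 42.1 RPKM, and in 12-43 0.895 and 1.43 RPKM. The reads behind them were 43 and 87 in E6 and 2 in each knockout and 12-43 library. The model therefore reached the read filter in E6 only. In E6 against 12-43 its log2 difference was 4.51 (limma), a value that is not independent of the filter. With 2 reads in each library, the knockout and 12-43 cannot be compared for this model. Model 1160054 was picked after its values were seen.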
